A study of Mus musculus with 4 samples.

Results

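The genes described here are 34 chaperone and unfolded protein response genes, given as a list of symbols, and all 34 were found among the 32286 features counted. They were sorted by the place where their proteins act: 15 of the endoplasmic reticulum (ER), the transcription factor genes Xbp1 and Atf4, 9 of the cytosol, 3 of the mitochondrion, and 5 subunits of the cytosolic folding ring CCT. The counts are droplet single-cell RNA counts, as UMIs (molecule tags that count each captured transcript once), from ZsGreen+ cells sorted from the ligated hemisphere of Tmem119-2A-CreERT2;Ai6 mice, in which a tamoxifen-inducible Cre recombinase expressed from the microglial gene Tmem119 switches on the green reporter ZsGreen. There were 4 pools: female stroke and male stroke, taken on day 3 after permanent ligation of the middle cerebral artery (pMCAO), and female sham and male sham, taken on day 3 after the same surgery without ligation. Each pool combined 4 mice before sorting, so the mice of a pool cannot be told apart, and each sex and treatment is 1 pool. All 4 pools carried the same reporter genotype. No pool of unoperated mice was analysed here.

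The ER folds secreted and membrane proteins with the help of the HSP70-type chaperone BiP (Hspa5), the HSP90-type chaperone GRP94 (Hsp90b1), the sugar-binding chaperones calreticulin and calnexin, and disulfide isomerases. When unfolded protein accumulates there, the sensors IRE1, PERK and ATF6 start the unfolded protein response, in which spliced Xbp1, Atf4 and cleaved ATF6 raise transcription of ER chaperone and degradation genes. In the cytosol, heat shock factor raises transcription of inducible HSP70 and HSP90 genes, while HSC70 (Hspa8), HSP90 and the CCT ring also fold new proteins in unstressed, growing cells. Tubulin and actin are well-known CCT substrates. The mitochondrial matrix has its own HSP60 and HSP10 chamber (Hspd1 and Hspe1) and its own HSP70 (Hspa9).

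The pools held 66072270 UMIs (female stroke), 52733857 (male stroke), 29581392 (female sham) and 40970923 (male sham), and 18037 of 20437 barcodes were kept as cells. Clusters were made without the 34 genes, and 8 clusters carried microglia markers: 3473 female stroke, 3258 male stroke, 3164 female sham and 3991 male sham cells. Sall1, the lowest of the 10 microglia markers in these cells, was at 1.69 and 1.66 UMIs per 10,000 in the stroke pools and 4.08 and 2.85 in the sham pools. A cluster of 1054 female stroke and 556 male stroke cells, with 5 and 19 cells in the female and male sham pools, had 11 of 12 markers of monocyte-derived macrophages at 1 or more UMIs per 10,000, was led by Arg1, Thbs1 and Gpnmb and is called macrophage-like, although the sort was for a microglial reporter. The male sham file held no barcode under 4198 UMIs, whereas the other 3 files reached down to 500 or 501. Pools shared between 4 and 11 barcodes with one another. Levels below are UMIs per 10,000 of all UMIs in the named cells, and their intervals cover counting error only.

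Promoter sequences are shown for genes on which the results turn. The reason is that 14 of the 15 ER genes rose and part of the ER group holds a known stress-response element. The genes were listed as chaperone and unfolded protein response genes, so finding such elements in them is not independent of that choice. RefSeq windows on GRCm38.p6, from 250 bases before to 50 after the start site, were matched for 28 of the 34 genes. No window was matched for Hsp90aa1, Hsp90ab1, Hspa8, Hspa9, Manf or Hyou1, so these genes were not searched for any element. The ER stress element ERSE was searched as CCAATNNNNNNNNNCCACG, ERSE-II as ATTGG, any base and CCACG, the unfolded protein response element UPRE as TGACGTGG, the heat shock element HSE as GAANNTTCNNGAA and the Atf4 element CARE as TGATGCAA, each on both strands. ERSE, ERSE-II and the reverse strand of UPRE overlap in the letters CCACG. ERSE was found in 7 of the 13 matched ER genes, namely Calr, Canx, Creld2, Dnajc3, Hsp90b1, Hspa5 and Pdia6, against 0.119% of all 32851 windows. Sdf2l1 and P4hb, with the next largest rises among the ER genes after Calr, held none of the 5 elements in their windows. ERSE-II was found in Dnajb11 and Herpud1, against 0.0365% of windows. HSE was found in Hspd1, Hspe1 and Hsph1, against 0.603% of windows, and CARE in Herpud1, against 0.895%. UPRE was in none of the matched windows of the 34 genes, against 0.676% of all windows. Each match is a run of letters and not a site shown to be bound. The 3 windows below belong to the ER genes with the largest rise after stroke that held ERSE (capitals mark the fixed letters of each element, 5′ to 3′ on the gene's strand), and Hsp90b1 held it in both orientations.
Calr, chr8:84846882-84847181, minus strand: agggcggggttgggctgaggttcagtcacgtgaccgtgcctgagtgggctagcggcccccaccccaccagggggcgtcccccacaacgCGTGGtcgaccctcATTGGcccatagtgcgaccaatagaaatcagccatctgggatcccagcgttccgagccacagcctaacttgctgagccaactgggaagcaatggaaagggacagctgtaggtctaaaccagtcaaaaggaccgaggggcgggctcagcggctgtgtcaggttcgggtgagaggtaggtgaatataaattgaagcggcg
Creld2, chr15:88819396-88819695, plus strand: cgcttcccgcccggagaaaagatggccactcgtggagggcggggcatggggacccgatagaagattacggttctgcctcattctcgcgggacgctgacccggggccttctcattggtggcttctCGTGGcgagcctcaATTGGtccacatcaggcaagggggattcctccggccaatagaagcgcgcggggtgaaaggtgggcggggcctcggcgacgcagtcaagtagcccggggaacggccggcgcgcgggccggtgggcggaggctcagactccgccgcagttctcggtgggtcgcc
Hsp90b1, chr10:86705395-86705694, minus strand: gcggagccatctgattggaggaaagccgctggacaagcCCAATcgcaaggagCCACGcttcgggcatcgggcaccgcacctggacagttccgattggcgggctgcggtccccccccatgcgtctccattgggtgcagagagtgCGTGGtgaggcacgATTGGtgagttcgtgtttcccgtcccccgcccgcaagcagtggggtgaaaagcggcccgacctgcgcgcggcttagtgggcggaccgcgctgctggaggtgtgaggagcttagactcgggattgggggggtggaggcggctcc
Herpud1, the ER gene that fell, and Hspe1, the mitochondrial gene with the largest rise, were added after their values were seen. Capitals mark ERSE-II and CARE in Herpud1 and the overlapping HSE matches of both strands in Hspe1, whose start site lies 111 bases from that of Hspd1 in the opposite direction, so both windows hold the same element.
Herpud1, chr8:94386179-94386478, plus strand: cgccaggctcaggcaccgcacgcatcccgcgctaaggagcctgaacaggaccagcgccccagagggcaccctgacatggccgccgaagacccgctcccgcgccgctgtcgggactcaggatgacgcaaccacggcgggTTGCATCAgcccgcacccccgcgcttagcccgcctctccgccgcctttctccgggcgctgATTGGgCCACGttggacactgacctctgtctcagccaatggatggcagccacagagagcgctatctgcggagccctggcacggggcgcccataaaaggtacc
Hspe1, chr1:55087898-55088197, plus strand: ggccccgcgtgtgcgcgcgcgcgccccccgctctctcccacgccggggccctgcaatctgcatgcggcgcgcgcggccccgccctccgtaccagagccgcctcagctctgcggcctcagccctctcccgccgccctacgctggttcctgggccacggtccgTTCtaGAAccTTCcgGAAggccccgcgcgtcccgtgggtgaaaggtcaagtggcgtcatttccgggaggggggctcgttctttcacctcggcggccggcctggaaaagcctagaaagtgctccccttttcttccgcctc

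In microglia-like cells the 34 genes together made up 121 and 135 UMIs per 10,000 in the female and male stroke pools, against 81.6 and 94.98 in the female and male sham pools. The class was made of different clusters in the treatments: cluster 3 held 840 and 738 stroke cells, against 46 and 108 sham cells, cluster 7 held 626 and 520, against 17 and 53, and cluster 0 held 195 and 166, against 2009 and 580. Changes within a cluster and in the share of clusters are therefore both part of the class-wide values, and results for single clusters follow them. In an edgeR quasi-likelihood fit over 14190 genes with sex as a term (Benjamini-Hochberg adjusted p under 0.05), 27 of the 34 were higher in stroke, against 25.1% of all genes tested. Herpud1 and Xbp1 were lower, against 24.9% of all genes, and Atf4, Hspa1a, Hspa1b, Dnaja1 and Dnajb1 did not pass in either direction. The median log2 change was 0.79 over the 34 genes and -0.05 over all genes. The fit scales pools by the trimmed mean of M values (TMM). With library totals in its place the median of all genes moved to -0.35, 24 of the 34 genes were higher and 4 lower, and the share of all genes called was 16.3% higher and 45.2% lower. In levels per 10,000, both stroke pools lay above both sham pools for 24 of the 34 genes (23.2% of all genes tested), and both lay below for Herpud1, Xbp1, Atf4 and Dnajb1 (58.1% of all genes). Each treatment had 2 pools that differed in sex, and the fit takes out the difference between the sexes. The spread behind these p-values is therefore how far the difference between stroke and sham varied between the sexes, pooled over all genes.

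**Figure D1:**
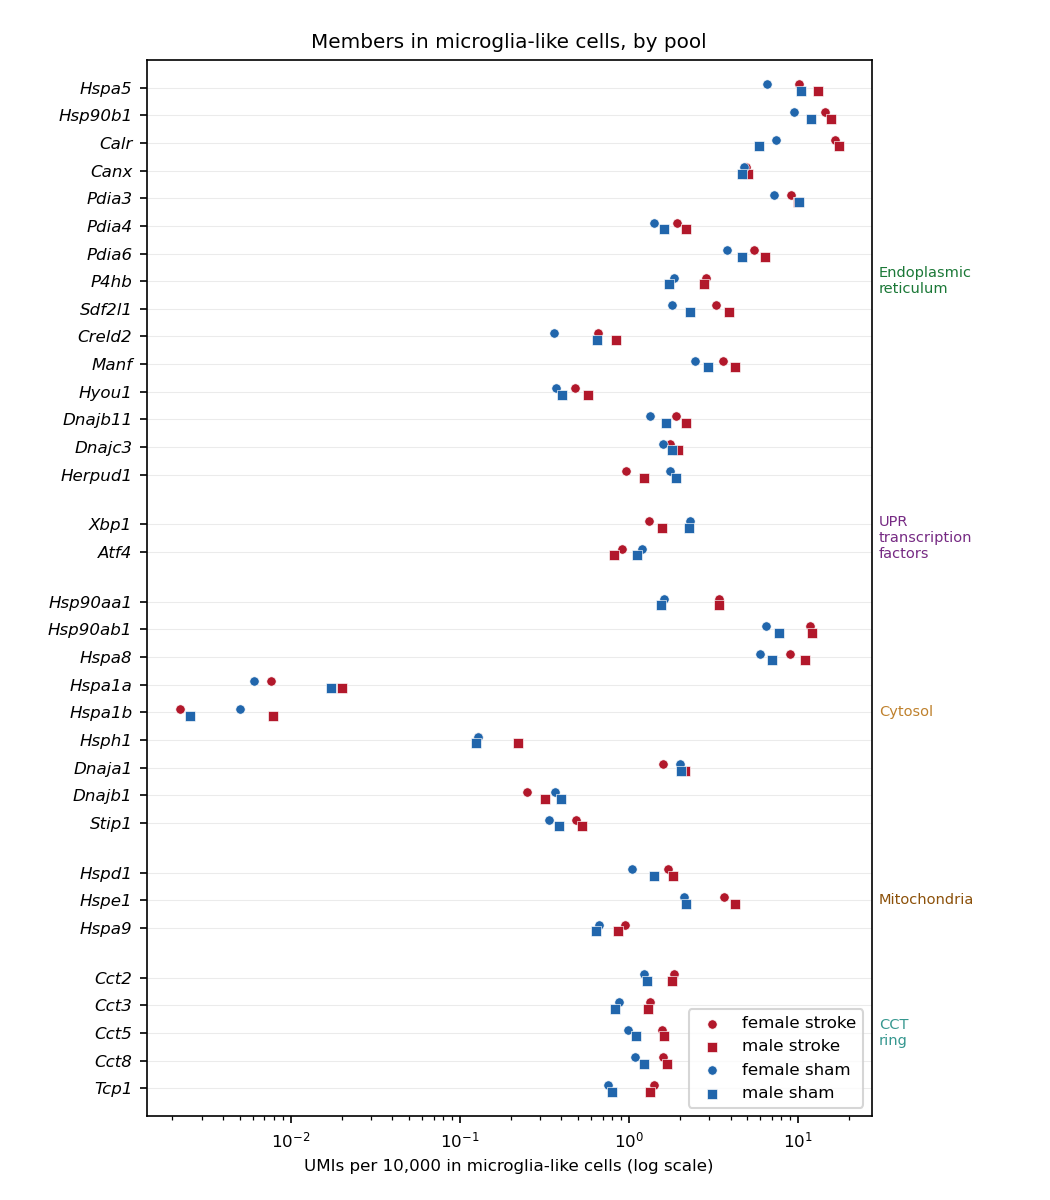
Level of each of the 34 genes in microglia-like cells as UMIs per 10,000 (log axis), 1 point a pool, red for stroke and blue for sham, circles for female and squares for male. Stroke points lie to the right for most genes, with Calr at 16.6 and 17.4 against 7.41 and 5.91 in sham, and to the left for Herpud1, Xbp1, Atf4 and Dnajb1.

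Of the 15 ER genes, 14 rose and Herpud1 fell, with a median log2 change of 0.78. Calr, which encodes the sugar-binding and calcium-binding chaperone calreticulin, had 16.6 and 17.4 UMIs per 10,000 in the female and male stroke pools, against 7.41 and 5.91 in the female and male sham pools. Both stroke pools lay above both sham pools, and its log2 change of 1.66 ± 0.16 (SE, adjusted p = 1.5e-09) was the largest of the 34 genes. Sdf2l1, a partner of BiP, had 3.26 and 3.90 UMIs per 10,000 in stroke, against 1.81 and 2.31 in sham, without overlap (log2 1.10 ± 0.15, adjusted p = 4.9e-07). P4hb, a protein disulfide isomerase, had 2.85 and 2.77 in stroke, against 1.85 and 1.74 in sham, again without overlap (log2 0.95 ± 0.14, adjusted p = 3.8e-06). Creld2, an ER-stress-induced protein, was low, at 0.661 and 0.845 in stroke, against 0.360 and 0.650 in sham, where the male sham pool came close to the female stroke pool (log2 0.92 ± 0.15, adjusted p = 7.3e-06).

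The remaining ER chaperones rose less. Hspa5 had 10.2 and 13.2 UMIs per 10,000 in stroke, against 6.58 and 10.5 in sham, so that the male sham pool lay above the female stroke pool although the fit with sex called it (log2 0.78 ± 0.16, adjusted p = 0.00018). Manf, a BiP-binding and secreted factor, rose by a log2 of 0.83, Hsp90b1 by 0.80, the isomerase Pdia6 by 0.79, the BiP co-chaperone Dnajb11 by 0.75, the isomerase Pdia4 by 0.74 and the nucleotide exchange factor Hyou1 by 0.74. The smallest rises were those of Pdia3, the isomerase that works with calreticulin and calnexin (0.46), the co-chaperone Dnajc3 (0.42) and calnexin itself, Canx (0.38). Pdia3 had 9.17 and 10.08 UMIs per 10,000 in stroke, against 7.27 and 10.11 in sham, so the male pools were alike. Canx had 4.92 and 5.10, against 4.83 and 4.67, and stroke and sham pools overlapped for Pdia3 and Dnajc3. Pdia3, Dnajc3 and Canx did not pass with cells thinned to 3000 UMIs. Canx, Dnajc3 and Pdia3 did not pass with library totals, with a mitochondrial share of at most 5% in every cell, or without the female stroke or the male stroke pool, and Hspa5 and Pdia6 also did not pass without the male stroke pool. Hsp90b1 overlaps the counted feature Gm15344 and Manf overlaps Rbm15b on the same strand, so reads could be shared there.

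Herpud1, which encodes an ER membrane protein of the degradation machinery and is itself a target of the unfolded protein response, went the other way. It had 0.965 and 1.23 UMIs per 10,000 in stroke, against 1.76 and 1.91 in sham, with no overlap (log2 -0.45 ± 0.14, adjusted p = 0.0083). Xbp1, the transcription factor activated by IRE1 splicing, had 1.31 and 1.57 in stroke, against 2.29 and 2.29 in sham, also without overlap (log2 -0.38 ± 0.14, adjusted p = 0.029). Gene-level UMIs do not separate spliced from unspliced Xbp1. Atf4 had 0.918 and 0.819 in stroke, against 1.20 and 1.12 in sham, and did not pass (log2 -0.12, adjusted p = 0.48), but it was called lower with library totals. Herpud1 lost its call without cycling cells or clusters 3 and 7, with cells thinned to 3000 UMIs, and without the female stroke or the male sham pool. Xbp1 lost its call with DESeq2, without the filter on low counts, without cycling cells or clusters 3 and 7, and without the female stroke or the male stroke pool.

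Of the 9 cytosolic genes, 5 rose and 4 did not pass, with a median log2 change of 0.72. Hsp90aa1, the inducible HSP90, had 3.43 and 3.43 UMIs per 10,000 in stroke, against 1.62 and 1.55 in sham, the widest gap of the group (log2 1.42 ± 0.15, adjusted p = 4.9e-09). Hsp90ab1, the constitutive HSP90, had 11.8 and 12.1 in stroke, against 6.51 and 7.78 in sham (log2 1.04 ± 0.16, adjusted p = 3.2e-06). Hspa8, the constitutive HSP70, had 9.01 and 11.1 in stroke, against 5.93 and 7.02 in sham (log2 0.93 ± 0.15, adjusted p = 1.3e-05). Stroke and sham pools did not overlap for any of these 3 genes. Stip1, the adaptor that joins HSP70 to HSP90, had 0.490 and 0.528 in stroke, against 0.339 and 0.389 in sham (log2 0.79 ± 0.14, adjusted p = 2.6e-05). Hsph1, a nucleotide exchange factor of HSP70, had 0.129 and 0.220 in stroke, against 0.128 and 0.124 in sham. The female pools were thus alike in UMIs per 10,000. With TMM, the scaling behind the fitted log2 of 0.72, the log2 ratio was 0.33 in the female and 1.10 in the male pools.

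The HSP70 co-chaperones and the inducible HSP70 pair behaved otherwise. Dnaja1 had 1.596 and 2.14 UMIs per 10,000 in stroke, against 2.01 and 2.04 in sham (log2 0.17 with TMM and -0.13 with library totals, adjusted p = 0.35 and 0.40), and Dnajb1 had 0.250 and 0.318 in stroke, against 0.368 and 0.397 in sham (adjusted p = 0.42). Dnajb1 was called lower with library totals. Hspa1a, a classical heat shock and dissociation-sensitive gene, held 31 and 76 UMIs in all microglia-like cells of the female and male stroke pools, against 12 and 41 in the sham pools. Hspa1b held 9 and 30 in stroke, against 10 and 6 in sham. These near-identical neighbours on chromosome 17, 12918 bases apart, may share reads, and neither passed (adjusted p = 0.21 for Hspa1a and 0.39 for Hspa1b).

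All 3 mitochondrial genes rose. Hspe1, the HSP10 lid of the matrix folding chamber, had 3.66 and 4.23 UMIs per 10,000 in stroke, against 2.12 and 2.18 in sham (log2 1.17 ± 0.15, adjusted p = 1.9e-07). Hspd1, the HSP60 chamber itself, had 1.71 and 1.82 in stroke, against 1.05 and 1.41 in sham (log2 0.83 ± 0.15, adjusted p = 2.8e-05). Hspa9, the matrix HSP70, had 0.947 and 0.868 in stroke, against 0.669 and 0.637 in sham (log2 0.77 ± 0.14, adjusted p = 3.2e-05). None of the 3 had overlapping groups. Hspe1 and Hspd1 have 6 and 5 annotated pseudogene copies, to which reads could be assigned.

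All 5 CCT genes rose, with a median log2 change of 0.91 and no overlap between stroke and sham pools. Tcp1, which encodes the first subunit of the ring, had 1.42 and 1.33 UMIs per 10,000 in stroke, against 0.755 and 0.791 in sham (log2 1.13 ± 0.14, adjusted p = 1.6e-07). Cct3 had 1.33 and 1.30 in stroke, against 0.870 and 0.828 in sham (log2 0.93), and Cct5 had 1.58 and 1.61 in stroke, against 0.988 and 1.11 in sham (log2 0.91). Cct2 had 1.85 and 1.81 in stroke, against 1.23 and 1.29 in sham (log2 0.84). Cct8, at 1.59 and 1.69 in stroke against 1.09 and 1.22 in sham, rose by a log2 of 0.80. Of the other subunits of the ring, Cct4 and Cct6a rose by 0.51 each, less than any of these 5, whereas Cct7 rose slightly more than Cct8.

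Summed by place, the ER genes held 1.49 times as many UMIs per 10,000 in female stroke as in female sham and 1.40 times as many in male stroke as in male sham. The same ratios were 1.58 and 1.54 for the cytosolic sum, 1.64 and 1.64 for the mitochondrial sum and 1.57 and 1.48 for the CCT sum, and 0.638 and 0.700 for Xbp1 with Atf4. Per cell, after every cell was thinned to 3000 UMIs, the median ER sum was 20 UMIs in female stroke and 22 in male stroke cells, against 15 and 18 in female and male sham cells. The 10th percentile was 11 and 12 UMIs in stroke, against 8 and 10 in sham, and the upper decile was 35 and 39 in stroke, against 23 and 28 in sham. The gap between stroke and sham was thus widest among cells with many ER chaperone UMIs.

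Other measures moved with treatment in the same cells. Mitochondrially encoded genes held 540 and 515 UMIs per 10,000 in stroke, against 225 and 128 in sham, and ribosomal protein genes 1443 and 1434 in stroke, against 861 and 913 in sham. With both gene classes left out of the total, the mean log2 ratio of the ER sum over the sexes was 0.68, against 0.53 with all genes. Immediate early genes, which mark activation during tissue handling as well as in the brain, summed to 20.1 and 21.3 in stroke, against 29.9 and 48.9 in sham, the opposite direction to the chaperone genes. The 12 macrophage markers summed to 8.01 and 7.87 in stroke microglia-like cells, against 0.777 and 0.873 in sham, with 2 of the 12 at 1 or more UMIs per 10,000 in either stroke pool and Treml4 near 0. The part of these measures in the rise was not tested. Cells with at least 3 UMIs of 36 cell cycle genes after thinning made up 32.4% and 29.6% of stroke microglia-like cells, against 2.80% and 3.56% of sham cells.

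Levels differed between the microglia-like clusters. In both stroke pools the ER sum was highest in cluster 3, whose leading genes were Spp1, Lpl and Ch25h, at 91.5 and 105 UMIs per 10,000, and next highest in cluster 7, led by the mitosis genes Top2a and Mki67, at 80.5 and 93.0. It was lowest at 53.8 in female stroke (cluster 1, led by P2ry12) and at 56.8 in male stroke (cluster 5, led by Cst3). The cytosolic sum had the reverse order at the top, with 35.9 and 41.0 in cluster 7 and 29.6 and 33.5 in cluster 3, against 12.4 and 16.5 in the lowest cluster of each pool. CCT was likewise highest in cluster 7, at 9.54 and 9.78, and mitochondrial genes were near equal in clusters 3 and 7. Gene by gene, 12 of the 15 ER genes were highest in cluster 3 in both stroke pools, while 5 of the 9 cytosolic and 4 of the 5 CCT genes were highest in cluster 7 in both. Xbp1 was highest in cluster 0, led by P2ry13 and P2ry12, in both. These levels describe the clusters, and clusters rest on other genes of the same cells, so no test was made.

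**Figure D2:**
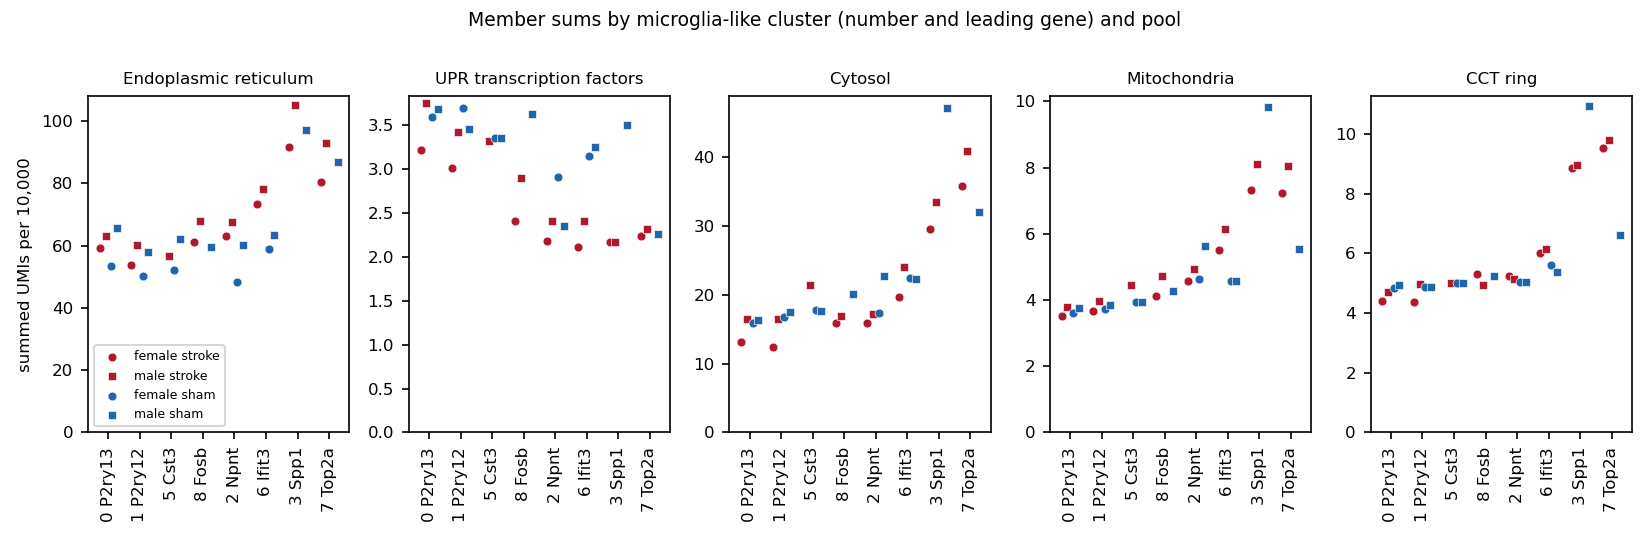
Summed UMIs per 10,000 of the genes of each place (5 panels, y axes from 0) in the 8 microglia-like clusters, named by number and leading gene, for pools with at least 50 cells in the cluster; red stroke, blue sham, circles female, squares male. Sums are highest in clusters 3 and 7, also in male sham cells, where cluster 3 reached 97.1 for the ER sum, while Xbp1 with Atf4 is highest in clusters 0 and 1 in the stroke pools.

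The male sham pool had 108 cells in cluster 3, and they were as rich in chaperones as the stroke cells there. Their ER sum was 97.1 UMIs per 10,000, between the female and male stroke values of 91.5 and 105. Their cytosolic sum was 47.2, their mitochondrial sum 9.84 and their CCT sum 10.9, each above both stroke pools, which had 29.6 and 33.5, 7.32 and 8.11, and 8.86 and 8.97. Hspa5 was at 12.7 and 16.4 in the stroke cells of cluster 3, against 22.1 in the male sham cells. Calr differed: it was at 20.1 and 21.8 in the stroke cells of cluster 3, against 9.37 in the male sham cells. The female sham pool had too few cells there for a level.

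In the 4 clusters with enough cells in every pool, most of the 34 genes, like most of all features, overlapped between treatments or lay lower in stroke. In cluster 0, 1 of the 34 genes (Calr) had both stroke pools above both sham pools and 8 had both below, where 16.2% and 29.5% of all features at 0.1 or more UMIs per 10,000 did so. In cluster 1 the counts were 4 above and 11 below (13.7% and 28.7% of all features), in cluster 2, led by Npnt, 8 and 10 (16.1% and 36%), and in cluster 6, led by Ifit3, 12 and 6 (16.5% and 45.6%). The 34 genes were counted without the limit of 0.1. Hspa1a, counted above in clusters 1 and 2, had only 0.020 and 0.060 UMIs per 10,000 in the stroke cells of cluster 1. Calr was among the genes above in each of the 4 clusters, at 10.2 and 11.1 in stroke, against 7.54 and 6.46 in sham, in cluster 0 and at 15.9 and 15.7, against 8.16 and 5.60, in cluster 6. Herpud1 and Dnaja1 were among the genes below in each of the 4. Among these 4 clusters, then, the ER genes with both stroke pools above were most numerous in the interferon-gene cluster 6. In cluster 6 they were Calr, Hsp90b1, Hyou1, Manf, P4hb, Pdia4, Pdia6 and Sdf2l1.

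The fit of stroke against sham was repeated on clusters 0 and 1 only, a choice made after the levels by cluster were seen. There, 1 of the 32 genes tested was higher in stroke (1.64% of all 11576 genes were) and none lower (0.665% of all genes were), although Dnaja1 was lower at an unadjusted p of 0.011 in the same edgeR fit. The gene was Calr, with a log2 change of 0.73 ± 0.16 (adjusted p = 0.00055). The median log2 change over the 32 genes was 0.02. Hsp90aa1 had a log2 change of 0.12 ± 0.14, Hspa5 of 0.05 ± 0.16, Tcp1 of 0.02 ± 0.16 and Hspe1 of 0.24 ± 0.13, none of which passed. Without clusters 3 and 7, also added after the data were seen, 15 genes were higher (15.6% of all genes) and none lower (12.7%; Xbp1 was lower at an unadjusted p of 0.029), with Calr at 1.32 and Hspe1 at 0.95 on the log2 scale.

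Cells in the cell cycle were also left out by the rule on cell cycle UMIs. The rule is applied to cells thinned to 3000 UMIs, so the matching values with cycling cells are those of thinned cells. Cells with some cell cycle UMIs but fewer than 3 stayed in. Of 3204 female and 2991 male stroke cells, 1039 and 884 were left out and 1264 and 1294 had no such UMI. Of 2860 female and 3991 male sham cells, 80 and 142 were left out and 2014 and 2756 had none. With all thinned cells 23 of the 33 tested genes were higher in stroke (19.6% of all genes) and 1, Xbp1, was lower (16.5%). Without the cycling cells 19 of the 33 were higher (14.4% of all genes) and none lower (10.1%), also at an unadjusted p under 0.05. Of the ER genes 11 passed with and without cycling cells, with Calr at a log2 of 1.37, Sdf2l1 at 0.78, P4hb at 0.65 and Hyou1 at 0.64. Of the CCT genes 5 passed with all thinned cells (median 0.66) and 4 without the cycling cells (median 0.48). Hsp90aa1 had a log2 change of 0.48 ± 0.14 without cycling cells and of 1.001 with all thinned cells (1.42 before thinning). Stip1 was at 0.09 without cycling cells, which did not pass, and at 0.57 with them, and Hsph1, at -0.06 and 0.39, passed in neither. Of the mitochondrial genes Hspe1 passed both ways, at 0.90 and 0.99, while Hspd1 (0.27 and 0.56) and Hspa9 (0.24 and 0.50) passed only with cycling cells.

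**Figure D3:**
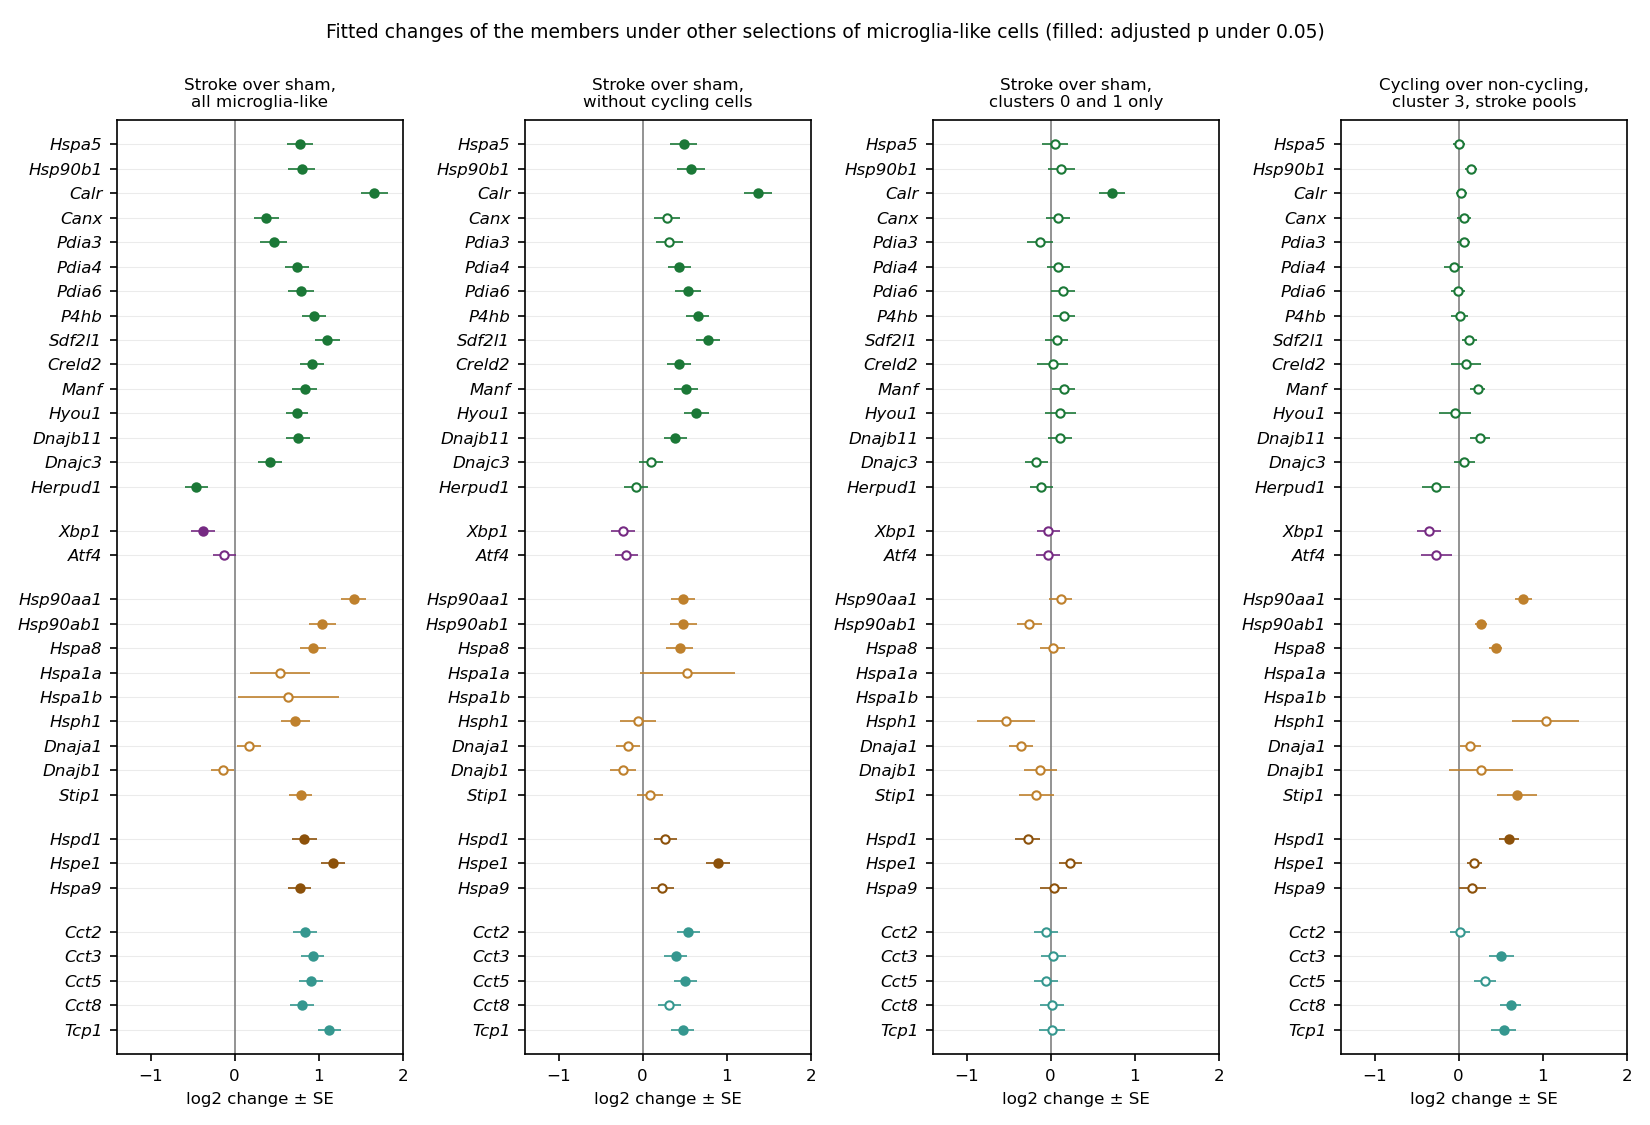
Fitted log2 change ± SE of each gene for stroke over sham in all microglia-like cells, in those without cycling cells (thinned to 3000 UMIs) and in clusters 0 and 1 only, and, at right, for cycling over non-cycling cells of cluster 3 in the stroke pools; filled points passed at an adjusted p under 0.05. Calr alone is filled in clusters 0 and 1, at 0.73, and no ER gene is filled in the panel on cycling in cluster 3.

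Within the stroke pools, cycling cells (at least 3 cell cycle UMIs in 3000) were set against cells with none, with pool as a term. Of the 32 genes tested, 27 were higher in cycling cells, against 26.2% of all 10709 genes, and Herpud1 and Xbp1 were lower, against 22.4% of all genes. The largest difference was that of Hsp90aa1, with 4.58 and 4.54 UMIs per 10,000 in cycling cells of the female and male pools, against 1.51 and 1.59 in non-cycling cells (log2 1.59 ± 0.06, adjusted p = 2.6e-13). Stip1 had 0.674 and 0.807 in cycling cells, against 0.251 and 0.322 in non-cycling cells (log2 1.40), Hsph1 rose by 1.25, Tcp1 by 1.06 and Hspd1 by 1.001. ER genes differed less, with a median log2 of 0.42, against 0.85 for the cytosolic, 0.88 for the mitochondrial and 0.77 for the CCT genes. Creld2 led the ER genes at 0.79, and Calr was at 0.40. Hyou1, Atf4 and Dnajb1 did not pass, and Hspa1a and Hspa1b had too few UMIs to be tested. The counts of 27 and 2 were the same with library totals, against 25.6% and 25.2% of all genes. Cycling and non-cycling cells came from different clusters: 57.7% and 55.7% of the cycling cells were of cluster 7 and 31.2% and 30.1% of cluster 3, against 0.0791% and 0% and 17.8% and 17.7% of the non-cycling cells.

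The same comparison was therefore made inside cluster 3, a choice also made after the data were seen, with 324 and 266 cycling cells in the female and male pools, against 225 and 229 non-cycling cells. There 8 of 32 genes were higher in cycling cells, against 6.2% of 7165 genes, and none was lower, against 3.75%, with Xbp1 lower at an unadjusted p of 0.015. None of the 15 ER genes was among the 8, and their median log2 was 0.06, with Hspa5 at 0.00 ± 0.07 and Calr at 0.03 ± 0.07. By unadjusted p-values under 0.05, Hsp90b1, Manf and Dnajb11 were higher. Those that passed were Hsp90aa1 (0.77 ± 0.10), Hspa8 (0.44 ± 0.08), Hsp90ab1 (0.27 ± 0.07) and Stip1 (0.70 ± 0.24) of the cytosol, Hspd1 (0.60 ± 0.12) of the mitochondrion, and Cct8 (0.62 ± 0.13), Tcp1 (0.54 ± 0.14) and Cct3 (0.51 ± 0.15) of the CCT ring. Whether the ER and the cytosolic genes differ in this respect was not itself tested.

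Macrophage-like cells were compared with microglia-like cells within the stroke pools, in a fit with pool as a term over 13413 genes. Of the 34 genes, 24 were higher in macrophage-like cells, against 34.3% of all genes, and Herpud1 was lower, against 36.4%. The median log2 difference was 0.38 over the 34 genes and -0.06 over all genes. With library totals the median of all genes moved to -0.33, and 16 of the 34 genes were higher (23.5% of all genes) and 8 lower (50% of all genes), so that the direction of small differences depends on the scaling. The microglia-like stroke cells enter this comparison and that of stroke with sham, and the values of the 2 comparisons are not independent.

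**Figure D4:**
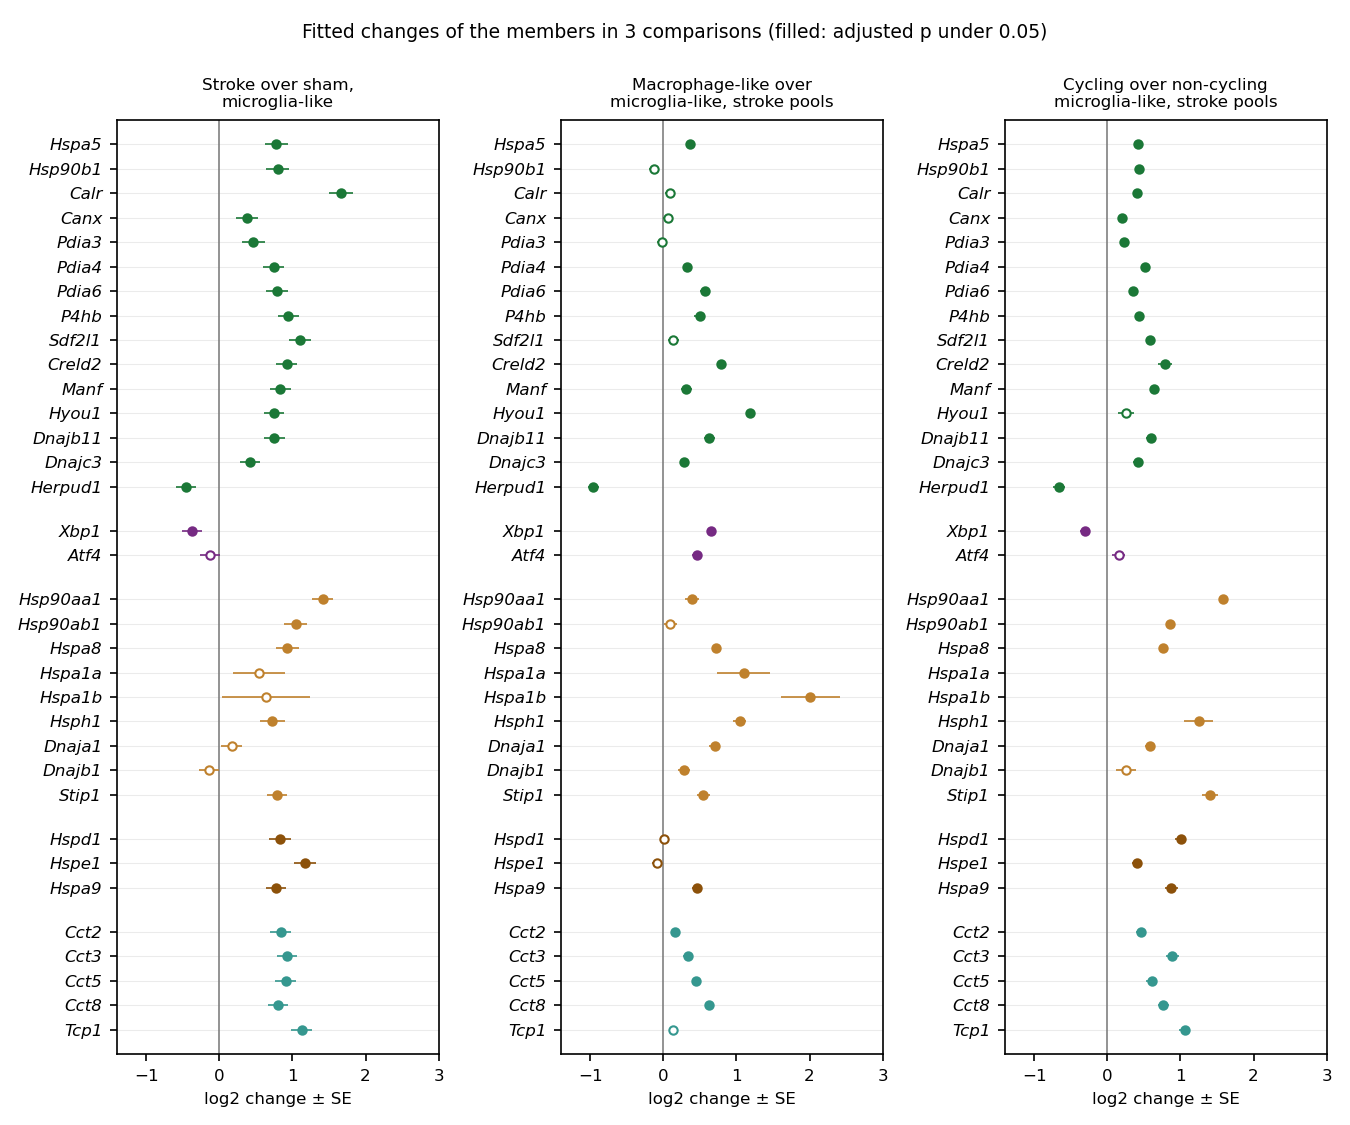
Fitted log2 change ± SE of each gene in 3 comparisons, coloured by place of action; filled points passed at an adjusted p under 0.05, and Hspa1a and Hspa1b were not tested in the right panel. Herpud1 is below 0 in all 3 panels, at -0.45, -0.96 and -0.66, and Xbp1 is at -0.38 and -0.31 for stroke and cycling and at 0.65 for macrophage-like cells.

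Hyou1 had the largest difference among the ER genes, with 0.884 and 1.11 UMIs per 10,000 in macrophage-like cells of the female and male stroke pools, against 0.482 and 0.570 in microglia-like cells (log2 1.19 ± 0.06, adjusted p = 6.3e-08). Creld2 was higher by a log2 of 0.79, Dnajb11 by 0.63, Pdia6 by 0.57 and P4hb by 0.50, and these 5 genes also passed, in the same direction, with library totals. Herpud1 had 0.380 and 0.573 in macrophage-like cells, against 0.965 and 1.23 in microglia-like cells (log2 -0.96 ± 0.07, adjusted p = 9.6e-07). Calr had 14.1 and 15.9 in macrophage-like cells, against 16.6 and 17.4 in microglia-like cells, and its log2 difference was 0.08 with TMM, which did not pass, and -0.19 with library totals, which did. Canx, Sdf2l1 and Hspd1 likewise changed from a small positive difference that did not pass to a negative one that did, and Hsp90b1, Pdia3 and Hspe1 were called lower with library totals. Hsp90ab1 and Tcp1 also turned negative there, at -0.17 and -0.14, without passing.

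Unlike in the comparison of treatments, both transcription factor genes were higher in macrophage-like cells. Xbp1 had 1.73 and 2.00 UMIs per 10,000 there, against 1.31 and 1.57 in microglia-like cells (log2 0.65 ± 0.05, adjusted p = 7.2e-07). Atf4 had 1.012 and 0.963, against 0.918 and 0.819 (log2 0.45 ± 0.06, adjusted p = 7.1e-05). In the cytosol, Hspa8 had 12.3 and 15.3 in macrophage-like cells, against 9.01 and 11.1 in microglia-like cells (log2 0.73 ± 0.06, adjusted p = 2.7e-06). Dnaja1 was higher by 0.70, Hsph1 by 1.04 and Stip1 by 0.55, whereas Hsp90ab1, at 9.08 and 12.3 in macrophage-like cells against 11.8 and 12.1 in microglia-like cells, did not pass. Hspa1a and Hspa1b were called, at log2 1.10 and 2.01, on 10 and 40 and on 9 and 24 UMIs in macrophage-like cells of the female and male pools. Hspa1a had 0.006575 and 0.0493 UMIs per 10,000 there, against 0.00763 and 0.020005 in microglia-like cells, so that only the male pool was higher. Both lost the call with cells thinned to 3000 UMIs and without pool as a term, and Hspa1a also with DESeq2.

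In the mitochondrial group, Hspa9 was higher in macrophage-like cells by a log2 of 0.46, while Hspd1 (0.01) and Hspe1 (-0.09) did not pass. Cct8 was higher by 0.63, Cct5 by 0.44, Cct3 by 0.33 and Cct2 by 0.16, but with library totals Cct3 (0.07) and Cct2 (-0.11) did not pass. Macrophage-like cells had a median of 13446 and 13412 UMIs a cell, against 8842 and 8801 in microglia-like cells, and cycling cells were 2.51% and 2.93% of them, against 32.4% and 29.6% of microglia-like cells. With every cell thinned to 3000 UMIs, 21 of the 24 genes kept their calls, Dnajb1, Hspa1a and Hspa1b lost them, and Calr, Sdf2l1, Hsp90ab1, Hspd1 and Tcp1 were called higher as well, with 30.8% of all genes higher and 31.3% lower. The 10 microglia markers summed to 22.2 and 22.0 UMIs per 10,000 in macrophage-like cells, against 174 and 182 in stroke microglia-like cells, and the part of such UMIs in these differences was not tested.

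Among the other cell classes with at least 50 cells in both stroke pools, dendritic cell-like cells had ER sums of 36.2 and 40.7 UMIs per 10,000 and neutrophil-like cells of 32.1 and 33.9, both below microglia-like cells at 78.3 and 87.7. Dendritic cell-like cells had cytosolic sums of 28.3 and 34.8, in the range of macrophage-like cells at 27.6 and 36.6, and neutrophil-like cells had 12.2 and 14.9. Xbp1 with Atf4 was highest in neutrophil-like cells, at 3.604 and 3.97, against 2.23 and 2.39 in stroke microglia-like cells. Border-associated macrophage-like cells of the sham pools had ER sums of 29.2 and 39.9, against 52.4 and 62.8 in sham microglia-like cells, and cytosolic sums of 22.7 and 22.8, against 16.9 and 19.3. These are levels of 1 pool each, given without a test.

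Wider lists of the same pathways, chosen from gene function with earlier results known, were counted in the same fit of stroke against sham, in which 25.1% of all genes were higher and 24.9% lower. Of 19 further ER folding genes, 10 rose and Dnajb9 fell by 0.62 on the log2 scale, and the largest rises were those of the peroxiredoxin Prdx4 (1.74), the disulfide-forming oxidase Ero1l (1.54) and Erp29 (0.91). Of 27 genes of ER-associated degradation and translocation, 14 rose, led by Derl3 (1.61), Sec61b (1.16) and Ssr2 (0.99), and Selenos and Sec62 fell by 0.38 and 0.37. Derl3 was at 0.0253 and 0.0213 UMIs per 10,000 in stroke, against 0.00755 and 0.0110 in sham, and so rests on few molecules. Among 28 genes of unfolded protein response signalling and its targets, 11 rose and 3 fell. Psat1, an enzyme of serine synthesis and a known Atf4 target, had 1.07 and 0.935 in stroke, against 0.160 and 0.150 in sham (log2 2.99 ± 0.15, adjusted p = 1.0e-15), followed by the folate enzyme Shmt2 (1.63) and the asparagine synthetase Asns (1.36). Asns was low, at 0.0553 and 0.0379 in stroke, against 0.0161 and 0.0279 in sham, and its gap was wider in the female pools. Ddit4 fell by 1.75, Ppp1r15a, which reverses the block on translation set by PERK, by 0.65, and Eif2ak3, which encodes PERK, by 0.40.

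Of 27 tested cytosolic co-chaperone genes, 9 rose, led by Bag1 (1.34), Hspa4l (0.71) and Hspa4 (0.68), and Dnajb4 and the heat shock factor gene Hsf1 fell by 1.13 and 0.39. Of 9 further CCT and prefoldin genes, 6 rose, led by Cct7 (0.81), Pfdn1 (0.78) and Cct6a (0.51), and none fell. Of 19 mitochondrial import and folding genes, 10 rose, led by Timm8a1 (1.21), Timm13 (1.012) and the iron-sulfur co-chaperone Hscb (0.83), and none fell. The median log2 change was 0.35 for ER folding, 0.39 for degradation and translocation, 0.29 for signalling and targets, 0.17 for cytosolic co-chaperones, 0.50 for CCT and prefoldin and 0.37 for mitochondrial genes, against -0.05 for all genes. With library totals the counts higher and lower were 9 and 5 for ER folding, 8 and 4 for degradation and translocation, 6 and 9 for signalling and targets, 2 and 8 for cytosolic co-chaperones, 2 and 1 for CCT and prefoldin and 5 and 5 for mitochondrial genes, where 16.3% of all genes were higher and 45.2% lower. The medians for signalling (-0.01) and co-chaperones (-0.13) were then below 0, with the median of all genes at -0.35.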

How the data were processed

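Single-cell RNA libraries of 4 pools (female and male, stroke and sham) were made with droplet 3′ chemistry, per the labels' protocols. The deposited values are raw UMI counts per gene and barcode, made by the authors with Cell Ranger 7.1.0 and mm10, per the submitters' processing notes. The file headers name another Cell Ranger release, and no source used here states how intronic reads were treated.

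A minimum of 500 genes and 1000 UMIs and a maximum of 10% mitochondrial UMIs per barcode kept 18045 barcodes. Scrublet marked 8 of them (0.0443%) and so did not work as a doublet filter, and doublets may remain. Cells were clustered with scanpy 1.11.5 (2000 variable genes without the 34 genes and the wider lists, 30 components, 15 neighbours, Leiden resolution 0.8) into 20 clusters. Clusters were named from marker lists with at least 3 detected markers, and for a name other than microglia a mean log2 of at least 1 was required, a threshold chosen after seeing the data. UMIs were summed per pool and class and tested with edgeR 4.0.16 (glmQLFit, glmQLFTest, TMM, filterByExpr, Benjamini-Hochberg), with sex as a term for stroke against sham and pool as a term otherwise, each with 1 residual degree of freedom moderated over all genes. With 1 library per sex and treatment, p-values measure how far the fitted difference varied between the sexes or, in the fits with pool as a term, between the stroke pools.

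The fits were tested on simulated data: at an adjusted p under 0.05 they recovered 73.7% of genes changed by a log2 of 1 and 95.0% of those changed by 2 over 14190 genes of the stroke comparison, 66.0% and 92.7% over 13413 genes of the macrophage comparison, and 61.3% and 95.0% over 10709 genes of the cycling comparison. In the simulation few genes changed, as many up as down, and all genes had the same spread beyond counting error. In the data 25.1% of genes were called higher and 24.9% lower for stroke, so recovery there may differ. DESeq2 1.42.0, library totals, other cell limits, thinning, clustering settings and left-out pools (fitted without the sex term) were alternatives. The 34 genes and all lists were chosen with earlier results of these data known. All 34 genes are named; values per pool are given in each place of action for the 4 largest changes that passed, for genes that moved against their group and for Hspa1a and Hspa1b, and wider lists name the 3 largest changes in each direction. Restrictions to clusters, or to cluster 3, were chosen after seeing the data.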

Additional observations from a re-analysis of the deposited data

Results flagged for a closer look

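Dnaja1, an HSP70 co-chaperone, had ratios of opposite sign in the sexes when scaled by library totals. Its log2 ratio of UMIs per 10,000 in microglia-like cells was -0.33 for female stroke over female sham and 0.07 for male stroke over male sham. With TMM scaling the ratios were -0.0055 and 0.34, so the female change was near 0 and the opposite signs depend on the scaling. Each sex has 1 pool per treatment, and the difference between the sexes was not tested.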

How the results depend on the processing

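For stroke against sham, 27 of the 34 genes were higher and 2 lower, with 3556 higher and 3532 lower of all genes. With library totals 4 were lower, with 2311 higher and 6407 lower of all genes. DESeq2, no low-count filter and thinned cells each left 1 lower (all genes lower 1759 with DESeq2 and 2031 thinned). Without cycling cells, after thinning, 0 were lower (all genes 1706 higher, 1198 lower), and Hsph1 reversed, to -0.058. In clusters 0 and 1 only, 1 was higher and 0 lower (all genes 190 and 77), and Pdia3 (-0.13), Dnajc3 (-0.17), Hsp90ab1 (-0.25), Hsph1 (-0.53), Stip1 (-0.17), Hspd1 (-0.27), Cct2 (-0.057) and Cct5 (-0.056) reversed. Without clusters 3 and 7, 15 were higher and 0 lower (all genes 2055 and 1677), and Stip1 reversed to -0.032. Leaving out 1 pool gave 21 to 27 higher and 0 to 2 lower, with 2343 to 4470 higher and 1673 to 3932 lower of all genes. In these fits a lone pool is assumed to vary like the other treatment's pools, and sex is not a term. A lost call there can therefore also come from the changed model. Dnaja1, which did not pass in any of these settings, had 0.17 and turned to -0.13 with library totals, -0.18 without cycling cells, -0.028 thinned, -0.35 in clusters 0 and 1 and -0.13 without clusters 3 and 7. For macrophage-like against microglia-like cells, 1 gene was lower, 8 with library totals and 2 each with no filter and with the male sham UMI minimum; DESeq2 called 2883 of all genes lower, against 4889. With library totals Calr (-0.19), Canx (-0.21), Sdf2l1 (-0.13), Hspd1 (-0.26) and Cct2 (-0.11) reversed, all but Cct2 with a call as lower. Hsp90ab1 (-0.17) and Tcp1 (-0.14) turned negative, also without passing. For cycling cells DESeq2 left 1 gene lower, with 1286 higher and 677 lower of all genes, against 2807 and 2399. Inside cluster 3, 8 were higher and 0 lower (all genes 444 and 269), and Pdia4 (-0.057) and Pdia6 (-0.0059) reversed. The cause was not tested, except that restricted and thinned settings hold fewer UMIs.

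The mean log2 ratios of stroke over sham over the sexes moved as follows. Without cycling cells, after thinning, they were 0.34 (ER), -0.46 (Xbp1 with Atf4), 0.14 (cytosol), 0.39 (mitochondrion) and 0.21 (CCT). With all thinned cells, the matching values, they were 0.43 (ER), 0.40 (cytosol), 0.57 (mitochondrion) and 0.42 (CCT). Without ribosomal protein and mitochondrially encoded genes in the total they were 0.68 (ER), -0.43 (Xbp1 with Atf4), 0.80 (cytosol), 0.87 (mitochondrion) and 0.76 (CCT). Without its most abundant gene, Xbp1 with Atf4 was -0.42, cytosol 0.57 and mitochondrion 0.51. With a mitochondrial share of at most 5%, Xbp1 with Atf4 was -0.46 and mitochondrion 0.70, and with the male sham UMI minimum mitochondrion was 0.72. No paired analysis was possible by replicate number, because every group has replicate number 1 alone. The main fits instead paired pools by sex (stroke against sham) or by pool (the other 2 comparisons).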
